A study of Mus musculus with 31 samples.

Results

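The genes described here store and translationally control maternal mRNA. They are Zar1, Zar1l, Ybx2, Cpeb1, Dazl, Patl2, Ddx6, Lsm14b, Eif4enif1 and Igf2bp2, 10 genes of the 20544 gene symbols in the count table. They were taken by name and not by their values, all 10 were found, and each had counts in both groups. The data are RNA-seq libraries of individual mouse embryos at the 2-cell stage, 16 of them control-generated and 15 SER-generated, with 1 library per embryo. SER stands for Sperm Energy Restriction and Recovery, a sperm treatment given before in vitro fertilization. The comparison asks whether mRNA levels in the 2-cell embryo differ with the treatment of the sperm.

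All embryos were wild type and had the same kind of parents. Sperm came from C57BL/6J males of 12 to 14 weeks, and oocytes from superovulated CD1 females of 8 to 10 weeks. Of each male, sperm of one cauda epididymis swam out into complete IVF-TYH +/+ medium (control) and sperm of the other into IVF-TYH -/- medium, which lacks glucose and pyruvate (SER). When the starved sperm had lost motility, after 15 to 45 min, both received complete medium and were used at once. Sperm and oocytes shared a droplet for 4 h, and embryos were cultured in KSOM and collected 32 h after insemination. The labels do not say which male, female or dish an embryo came from, so the p-values measure the spread between these embryos. The study made embryos of both groups in several independent batches. The labels do not assign embryos to them, so no fit here holds a batch term, and the part of batch in the results was not tested.

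A growing mouse oocyte makes a large stock of mRNA, stops transcribing and keeps much of the stock silent, with short poly(A) tails, in ribonucleoprotein particles. In these particles ZAR1, YBX2, DDX6, LSM14B and 4E-T (the product of Eif4enif1) hold mRNA away from ribosomes. CPEB1 and DAZL bind the 3′ ends of chosen transcripts and control when their tails grow and when they are translated. After fertilization most of the stock is destroyed while zygotic transcription begins, and in the mouse the main wave of zygotic activation falls in the 2-cell stage.

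Total counts per library ran from 532945 to 2085222 in control-generated and from 642321 to 3088396 in SER-generated embryos. Levels are given as CPM, the count divided by the library total and scaled to the same total for each library. The labelled stage was checked by markers, and the oocyte gene Gdf9 and the 2-cell gene Zfp352 had counts in all 31 libraries. Of 16 cumulus cell markers 15 had a median of 0 over the 31 libraries, with Has2 at 0 in 28 and Tnfaip6 at 0 in 18. Amhr2 was present, with an average log2 CPM of 6.85, and the summed level lay between 8.18 and 303 CPM. Of 14 sperm markers 9 had a median of 0, with Prm1 at 0 in 27 libraries. Prm2 was at 0 in 9 libraries and reached 19.6 CPM, and Odf2 had an average log2 CPM of 7.53. The sum of the sperm markers lay between 103 and 406 CPM. Control replicate 4 and SER replicate 15 stood apart from the rest. On a zygotic index, the mean scaled level of 23 genes listed as switched on at this stage in units of its SD, they had -3.39 and -2.71. The other embryos lay between -0.98 and 1.35. Of the 23 genes, Klf17 and Arg2 did not rise along the index (log2 changes per SD of -0.12 and -0.03). Results were also computed without these 2 embryos, control replicate 4 and SER replicate 15, a choice made after the data were seen. Each library is a whole embryo, so fewer cells holding a transcript and less of it per cell cannot be told apart. The RNA was captured by its poly(A) tail, so a change of amount and a change of tail length cannot be told apart either.

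Promoter sequences are shown for the 2 pairs of genes whose levels were most alike across embryos, Zar1 with Dazl and Cpeb1 with Eif4enif1. Each holds 300 bases, from 250 before to 50 after a RefSeq transcription start in GRCm38.p6, written 5′ to 3′ on the gene's strand. The E-box forms CAGCTG and CACGTG are in capitals. Other forms of the E-box (CANNTG) were not searched and stay in small letters where they occur. The windows are chr5:72581035-72581334 (minus strand) for Zar1, chr17:50293571-50293870 (minus) for Dazl, chr7:81454709-81455008 (minus) for Cpeb1 and chr11:3202103-3202402 (plus) for Eif4enif1, the most upstream of its starts.
Zar1: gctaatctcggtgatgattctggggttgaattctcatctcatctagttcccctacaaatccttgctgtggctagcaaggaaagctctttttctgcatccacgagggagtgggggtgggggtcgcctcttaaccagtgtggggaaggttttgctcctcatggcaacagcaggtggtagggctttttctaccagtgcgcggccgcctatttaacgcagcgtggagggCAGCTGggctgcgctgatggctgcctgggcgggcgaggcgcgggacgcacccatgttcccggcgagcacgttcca
Dazl: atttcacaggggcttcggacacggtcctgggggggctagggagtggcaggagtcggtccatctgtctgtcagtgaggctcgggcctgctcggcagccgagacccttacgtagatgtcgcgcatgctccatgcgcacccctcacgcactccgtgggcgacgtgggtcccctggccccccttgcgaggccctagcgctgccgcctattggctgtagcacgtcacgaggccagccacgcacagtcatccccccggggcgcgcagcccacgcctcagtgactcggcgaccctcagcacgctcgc
Cpeb1: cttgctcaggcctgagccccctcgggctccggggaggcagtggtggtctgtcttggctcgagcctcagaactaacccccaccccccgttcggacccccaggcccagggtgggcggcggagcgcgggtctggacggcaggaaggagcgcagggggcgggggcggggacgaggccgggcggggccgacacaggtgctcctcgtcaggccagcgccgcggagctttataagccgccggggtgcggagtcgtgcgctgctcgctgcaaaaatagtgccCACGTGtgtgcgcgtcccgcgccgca
Eif4enif1: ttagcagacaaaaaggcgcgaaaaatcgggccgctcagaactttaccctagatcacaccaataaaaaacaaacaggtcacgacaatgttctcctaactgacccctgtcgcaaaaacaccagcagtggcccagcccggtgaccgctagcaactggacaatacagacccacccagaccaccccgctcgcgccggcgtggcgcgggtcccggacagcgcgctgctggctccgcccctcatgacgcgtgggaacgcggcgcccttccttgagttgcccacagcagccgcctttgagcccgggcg

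The Zar1 window holds CAGCTG and the Cpeb1 window CACGTG, while the Dazl and Eif4enif1 windows hold neither. Both motifs read the same on either strand. Of 32851 mouse promoter windows of this length, 16.3% hold CAGCTG and 7.15% hold CACGTG. The motif bound by the oocyte factor NOBOX, TAATTG, was searched on both strands and found among the members in Zar1l alone, against 8.00% of all windows. The table gives windows for 9 of the 10 genes, not for Ddx6. The windows differ in their number of CG dinucleotides, of which Zar1l has 3, Patl2 10, Zar1 17, Dazl 28, Cpeb1 33 and Igf2bp2 47, against a median of 7 over all windows.

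The 3′ ends were searched for the cytoplasmic polyadenylation element, the site that CPEB1 binds, as TTTTAT and as its longer form TTTTAAT on the sense strand. For each gene 1 annotated transcript was read, that with the longest coding sequence. Of 8 members whose 3′ UTR has at least 100 bases in that transcript, 1 holds the element in the last 100 bases, against 17.8% of 19399 transcripts. It is Ybx2, at chr11:69941532-69941561 of GRCm38 (plus strand), shown with the element in capitals.
Ybx2: cctctgaagccaTTTTATgaactgtcatgt
A polyadenylation signal (AATAAA, or its common variant ATTAAA, in the last 40 bases) was found in 6 of the 8, against 72.4% of transcripts. Ybx2 is not among those 6, so no member searched held both motifs, against 13.4% of transcripts. In the transcripts read, the 3′ UTRs of Cpeb1 and Zar1l have 61 and 14 bases, shorter than 100, and were not searched. No other transcript of these genes was read.

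Eif4enif1 had the largest difference between the groups among the members. Its mean was 383 ± 112 CPM (SD, n = 15) in SER-generated against 250 ± 50.8 CPM (SD, n = 16) in control-generated embryos, a ratio of 1.53. It did not pass the test over all genes (log2 fold change 0.58, SE 0.17, edgeR adjusted p = 0.403). None of the other members came closer to the threshold: their log2 fold changes ran from -0.43 for Dazl to 0.32 for Cpeb1, each under its SE or little above it. In the quasi-likelihood test of edgeR, adjusted over 8571 genes by the Benjamini-Hochberg method, 0 of the 9 members tested had an adjusted p under 0.1, and the same was true of 0.0% of all genes. At an unadjusted p under 0.05 there was 1 member, Eif4enif1, against 5.73% of all genes (2.18% higher in SER-generated embryos). The median log2 fold change was 0.06 over the 9 members and 0.02 over all genes tested. Patl2, the tenth member, was removed by the filter on low counts.

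**Figure D1:**
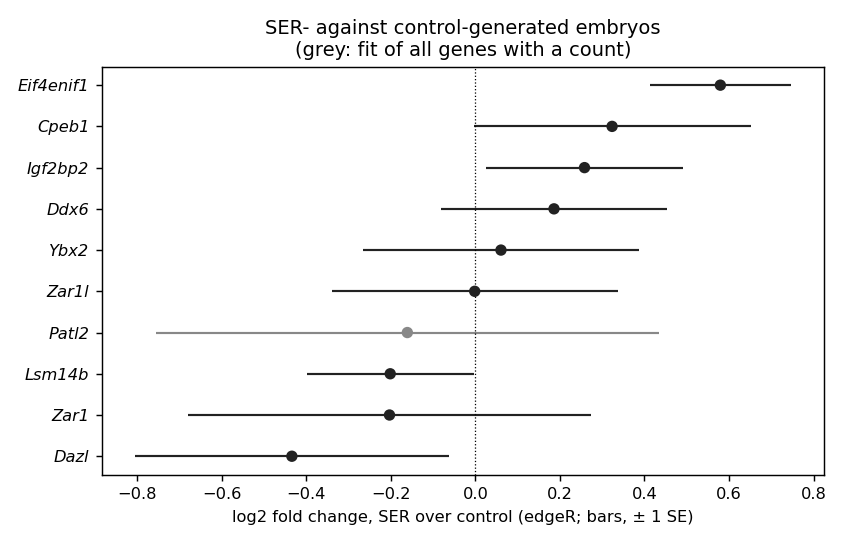
Log2 fold change of each gene in SER- over control-generated embryos (horizontal axis), by edgeR from 16 control and 15 SER embryos, with bars of 1 SE. Eif4enif1 lies at 0.58 with an SE of 0.17, farther from 0 than the other members. Patl2, in grey, comes from the fit of all genes with a count.

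Eif4enif1 encodes 4E-T, which binds the cap-binding protein eIF4E and gathers silent mRNA in granules. The gene lies at chr11:3202392-3244588 (GRCm38, plus strand). Control-generated embryos ran from 136 CPM through a median of 260 to 365 CPM, and SER-generated embryos from 216 through 381 to 564 CPM. The groups overlapped: SER replicates 5, 7 and 6 lay at 216, 220 and 232 CPM, within the control range. So did SER replicates 9, 2 and 10, at 307, 327 and 365 CPM. The highest controls were replicate 14 at 365 CPM and replicate 5 at 299 CPM. Among SER-generated embryos, 12 of 15 exceeded the control median and 9 of 15 the highest control. No control-generated embryo (0 of 16) reached the SER median. These last 2 features were looked for because of Eif4enif1's own values, and were as marked in 0.0933% and 0.233% of the 8571 genes tested.

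By p-value Eif4enif1 was the 27th of 8571 genes (unadjusted p = 0.00131). The call depended on the tool, the covariates and the filter. DESeq2 gave a log2 fold change of 0.57 with an adjusted p of 0.060, limma voom with quality weights 0.43 with 0.062, edgeR with 5 surrogate variables 0.66 with 0.023, and edgeR without the filter on low counts 0.60 with 0.093. Those fits called 0.572%, 9.89%, 0.0817% and 2.83% of all their genes. The fold change kept its size over the alternatives, from 0.43 to 0.66. With the log2 library total as a covariate it was 0.55, with counts thinned to the smallest library 0.55, and without control replicate 4 and SER replicate 15 it was 0.57 (adjusted p 0.555, 0.349 and 0.312). Leaving out each embryo in turn gave 0.53 to 0.62, with edgeR adjusted p from 0.253 to 0.651. Beside this difference, the summed level of 32 oocyte markers ran from 24678 to 124680 CPM (median 50364) in control-generated and from 20093 to 69434 CPM (median 33312) in SER-generated embryos, and its part in the result was not tested.

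**Figure D2:**
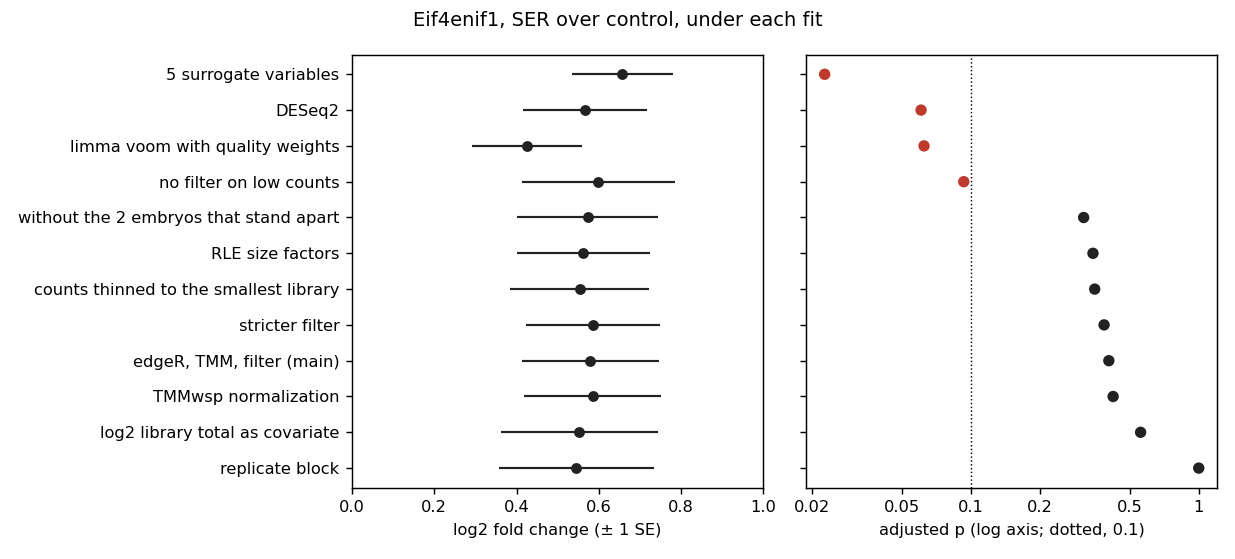
Eif4enif1 under each way of fitting the counts: log2 fold change of SER over control with bars of 1 SE (left) and adjusted p on a log axis with the threshold of 0.1 dotted (right). The fold change stays between 0.43 and 0.66, and 4 of the 12 fits, in red, lie below the threshold.

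The Zar genes encode zinc-finger proteins that bind maternal transcripts, and Zar1 is needed for the oocyte-to-embryo transition. Zar1 lies at chr5:72576806-72581254 and its paralog Zar1l at chr5:150507055-150518164, both on the minus strand. Zar1 ran from 1.26 through a median of 19.9 to 55.0 CPM in control-generated and from 1.23 through 18.2 to 92.3 CPM in SER-generated embryos. The ranges were almost the same except for SER replicate 15, the highest of all 31. The log2 fold change of Zar1 was -0.20 (SE 0.48, edgeR adjusted p = 0.981), without that 1 embryo it was -0.63, and without both embryos that stood apart -0.50. Zar1l was at 4.47, 60.0 and 129 CPM in control-generated (lowest, median, highest) and at 10.9, 57.8 and 106 CPM in SER-generated embryos. Its SER range lay wholly inside the control range, and its log2 fold change was -0.00 (SE 0.34, edgeR adjusted p = 1.00).

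**Figure D3:**
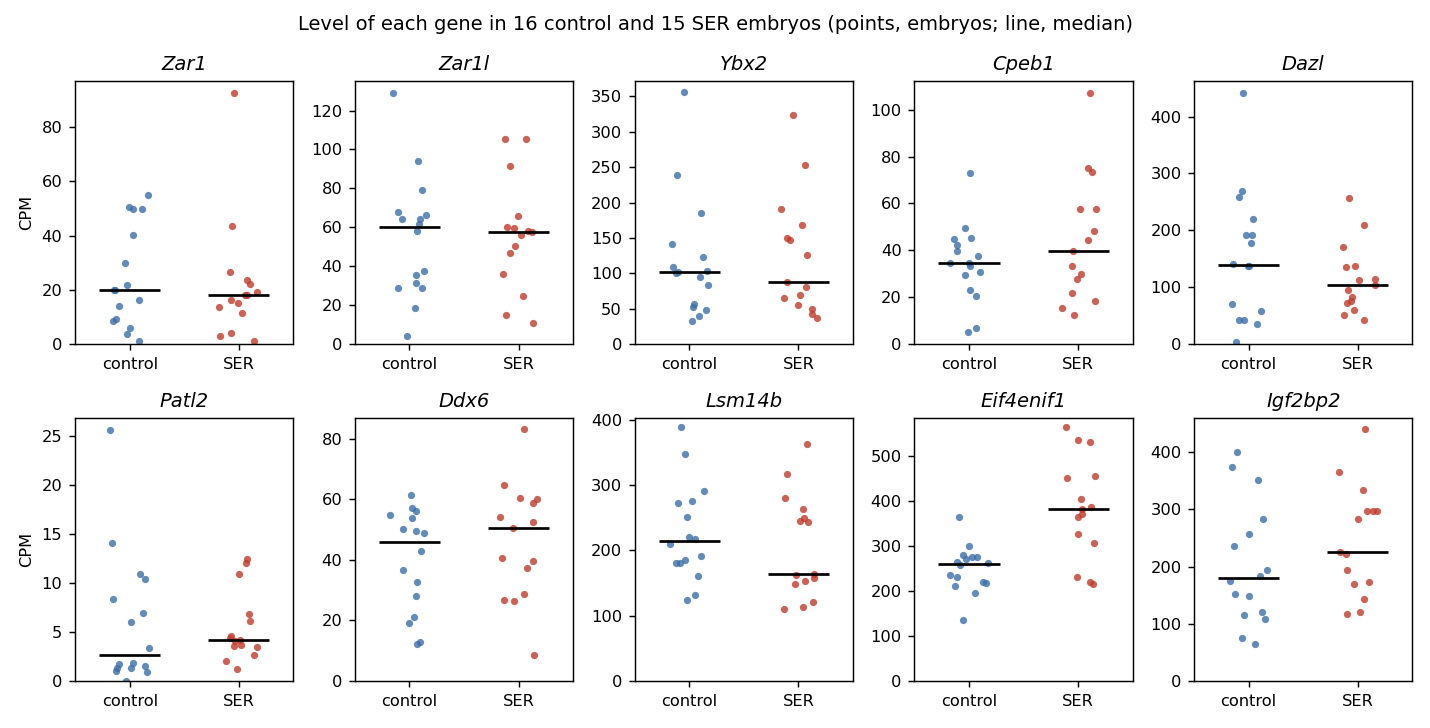
Level of each gene in CPM (vertical axis, from 0, its own scale per gene) in the 16 control and 15 SER embryos; points are embryos and the line is the group median. For Eif4enif1, 9 of 15 SER embryos lie above the highest control embryo, and for the other 9 genes at most 3 do.

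Ybx2 encodes the germ cell Y-box protein MSY2, which coats and stabilizes stored mRNA, and lies at chr11:69935796-69941605 (plus strand). Its levels were 32.1, 101 and 355 CPM in control-generated (lowest, median, highest) and 37.6, 88.1 and 323 CPM in SER-generated embryos. The highest embryo was replicate 14 in both groups, and the labels do not say whether these embryos share more than the number. The log2 fold change of 0.06 (SE 0.33, edgeR adjusted p = 0.992) ran from -0.12 to 0.27 when embryos were left out in turn, at its ends without SER replicate 14 and without control replicate 14.

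Cpeb1 and Dazl encode the sequence-specific regulators. CPEB1 represses mRNA with its element in the oocyte and, once phosphorylated, promotes lengthening of the tail. Cpeb1 (chr7:81347026-81455465, minus strand) was at 5.22, 34.4 and 73.1 CPM in control-generated and at 12.4, 39.6 and 107 CPM in SER-generated embryos. SER-generated embryos exceeded the highest control in 3 of 15 cases, SER replicate 15 the most. The log2 fold change was 0.32 (SE 0.33, edgeR adjusted p = 0.958), 0.15 without SER replicate 15, and 0.19 without both embryos that stood apart.

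DAZL is a germ cell RNA-binding protein that promotes translation during oocyte maturation. Dazl (chr17:50279395-50293636, minus strand) was at 4.40, 139 and 441 CPM in control-generated and at 43.1, 104 and 257 CPM in SER-generated embryos. Both its lowest and its highest embryo were control-generated, replicates 15 and 4, and 3 of 15 SER-generated embryos exceeded the control median. The log2 fold change was -0.43 (SE 0.37, edgeR adjusted p = 0.936). It was -0.20 without control replicate 4, -0.31 without both embryos that stood apart, and -0.47 with counts thinned to the smallest library. Only with the log2 library total as a covariate did the direction turn, to 0.23 with an SE of 0.45.

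Ddx6, Lsm14b and Patl2 encode the repressor core that works with 4E-T. DDX6 is an RNA helicase of translational repression and decapping, and its gene lies at chr9:44604892-44640731 (plus strand). Ddx6 was at 12.1, 45.8 and 61.4 CPM in control-generated and at 8.57, 50.4 and 83.1 CPM in SER-generated embryos. The lowest embryo of each group was the one that stood apart, control replicate 4 and SER replicate 15. For Ddx6 the log2 fold change was 0.19 (SE 0.27, edgeR adjusted p = 0.968).

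LSM14B is the oocyte partner of DDX6, and Lsm14b lies at chr2:180024987-180035465 (plus strand). It was at 124, 214 and 389 CPM in control-generated and at 110, 163 and 362 CPM in SER-generated embryos. The ranges overlapped over most of their length, with 3 of 15 SER-generated embryos below the lowest control and 13 of 16 controls above the SER median. SER over control, the log2 fold change was -0.20 (SE 0.20, edgeR adjusted p = 0.958).

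PATL2, an oocyte protein that represses translation, had the lowest counts of the members. Patl2 (chr2:122120108-122186189, minus strand) was at 0, 2.62 and 25.6 CPM in control-generated and at 1.17, 4.21 and 12.4 CPM in SER-generated embryos, that is 0 to 26 and 2 to 23 counts. The embryo with no count, control replicate 14, could have held up to 3.35 CPM at its depth (3 counts). In the fit of all genes with a count, Patl2 had a log2 fold change of -0.16 (SE 0.59, edgeR adjusted p = 0.961), while 12 of 15 SER-generated embryos exceeded the control median. At this depth a difference of the size seen for Eif4enif1 was not detectable for Patl2, since it is smaller than the SE.

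IGF2BP2 binds and stabilizes mRNA and is supplied by the mother to the early embryo. Igf2bp2 (chr16:22059009-22163299, minus strand) was at 64.4, 179 and 401 CPM in control-generated and at 117, 225 and 441 CPM in SER-generated embryos. The groups overlapped, with 10 of 15 SER-generated embryos above the control median and 1 above the highest control. For Igf2bp2 the log2 fold change was 0.26 (SE 0.23, edgeR adjusted p = 0.938).

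Levels of different genes were compared as CPM per kilobase of exon, with the merged exon length of each gene in GENCODE vM21. The counts join reads from transcript starts, which need not grow with length, and internal reads. Their shares are not known here, so the order of genes of unlike length is approximate. Over the 31 embryos the order of the mean levels (± SD) was Lsm14b 74.9 ± 26.2, Ybx2 63.5 ± 43.7, Zar1l 61.7 ± 33.0, Eif4enif1 49.4 ± 17.0, Dazl 35.0 ± 24.0, Igf2bp2 30.2 ± 13.7, Cpeb1 9.34 ± 5.25, Zar1 6.76 ± 5.79, Ddx6 5.33 ± 2.22 and Patl2 2.35 ± 2.21 CPM per kb. Between neighbours in the order, the mean log2 ratio within an embryo exceeded its SD at 2 steps. Igf2bp2 was above Cpeb1 in 27 of 31 embryos (log2 ratio 1.77 ± 1.17, SD) and Ddx6 above Patl2 in 27 of 31 (1.55 ± 1.43, SD). At the other 7 steps the ratio lay within its SD, as for Ybx2 over Zar1l (0.02 ± 1.73, SD, higher in 14 of 31). With the longest transcript, or that with the longest coding sequence, as the length, 4 of the 10 genes kept their rank. Eif4enif1 was then at 84.7 ± 29.2 and 85.5 ± 29.4 CPM per kb, level with Lsm14b at 84.4 ± 29.6 and 85.5 ± 29.9. Cpeb1 was at 12.6 ± 7.07 and 22.0 ± 12.4 CPM per kb, and Zar1 at 9.39 ± 8.05 and 16.4 ± 14.0. Zar1 remained eighth with each length, below its paralog Zar1l.

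The members also differed in how much they varied between embryos. Eif4enif1 had an SD of 0.46 on the log2 CPM scale over the 31 embryos, smaller than that of all but 2.43% of the genes tested, and Lsm14b an SD of 0.49 (3.52%). Zar1 had an SD of 1.30, larger than in 70.5% of genes, and Dazl of 1.21, larger than in 63.1%. Genes with few counts vary more, and among genes of similar mean level Dazl was at the 82.5th, Zar1 at the 57.0th and Eif4enif1 at the 12.6th percentile of the SD. Without the 2 embryos that stood apart, the SD was 0.45 for Eif4enif1 and 1.15 for Dazl, Zar1 was at the 73.1st percentile of all genes, and Dazl was at the 94.4th percentile among genes of similar level. From the lowest to the highest embryo the CPM of Lsm14b differed 3.52-fold and that of Dazl 100-fold, or 12.7-fold without control replicate 15 and 61.0-fold without control replicate 4.

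Whether one group of embryos was more uniform was tested on the absolute deviation of each embryo from the median of its group, by limma across the genes tested. At a limma adjusted p under 0.1 there were 0 of 9 members and 0.0% of all genes, and at an unadjusted p under 0.05 it was 0 members and 2.96% of all genes. The largest difference among the members was in Dazl. Its SD of log2 CPM was 1.56 in control-generated and 0.73 in SER-generated embryos, and its mean deviation 1.10 and 0.58, a difference of -0.52 (SE 0.32, limma unadjusted p = 0.108). Without control replicate 15, the embryo with 4.40 CPM, the difference was -0.28.

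Across embryos of both groups, the members moved unequally with the zygotic index. In an edgeR fit with group and index, Zar1 and Dazl fell and Ddx6 rose along the index, by log2 changes per SD of the index of -0.50 (SE 0.18, edgeR adjusted p = 0.0370), -0.48 (SE 0.14, adjusted p = 0.0100) and 0.38 (SE 0.15, adjusted p = 0.0546). These 3 of 9 members compare with 39.9% of all genes tested, 23.9% rising and 16.1% falling. The other slopes were -0.29 for Cpeb1 (edgeR adjusted p = 0.130), -0.18 for Ybx2, -0.10 for Eif4enif1, 0.04 for Igf2bp2, 0.10 for Zar1l and 0.15 for Lsm14b, with adjusted p from 0.260 to 0.836 for the last 5. Patl2, from the fit of all genes with a count, had 0.11 (edgeR adjusted p = 0.868). The index and the members come from the same libraries, so they share depth and composition.

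These slopes rested on the 2 embryos that stood apart. Without control replicate 4 and SER replicate 15, 0 of 9 members were called, against 12.0% of all genes (8.9% rising, 3.07% falling). Zar1 then had a slope of -0.20 (SE 0.37, edgeR adjusted p = 0.787) and Ddx6 of 0.07 (SE 0.21, adjusted p = 0.873). Dazl kept nearly its slope, -0.45, with a larger error (SE 0.28, edgeR adjusted p = 0.344). SER replicate 15 alone decided Zar1, which without it had -0.30 (edgeR adjusted p = 0.410), and Ddx6 lost its call without SER replicate 15 (0.25, edgeR adjusted p = 0.327) or control replicate 4 (0.34). Dazl was called in 30 of 31 fits that left out an embryo, the exception being control replicate 4 (edgeR adjusted p = 0.142).

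**Figure D4:**
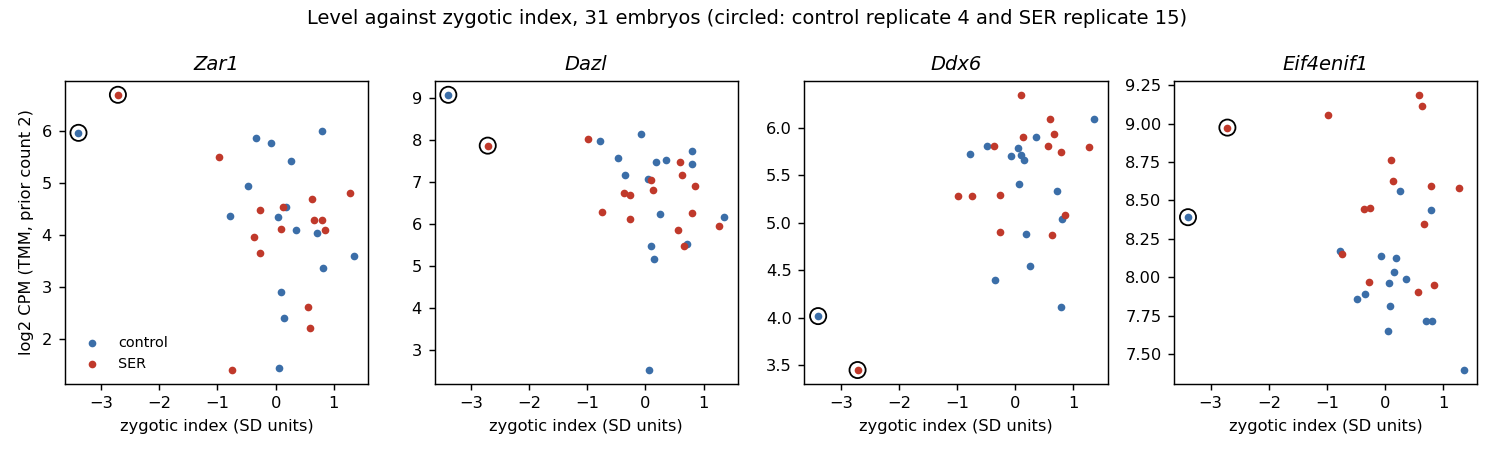
Level of Zar1, Dazl, Ddx6 and Eif4enif1 on the log2 CPM scale (vertical) against the zygotic index in SD units (horizontal), 16 control (blue) and 15 SER (red) embryos. The circled embryos, control replicate 4 and SER replicate 15, lie at -3.39 and -2.71 on the index, and the other 29 between -0.98 and 1.35.

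Some members varied together from embryo to embryo. Over the 31 embryos, on the log2 CPM scale, Cpeb1 and Eif4enif1 had a Pearson r of 0.66 (Spearman rho 0.62) and Zar1 and Dazl of 0.63 (rho 0.58), the highest of the 36 pairs of the 9 tested members. Cpeb1 with Eif4enif1 gave 0.73 within the control-generated and 0.72 within the SER-generated embryos, and Zar1 with Dazl 0.78 and 0.41. Ybx2 went with the first pair, with 0.54 for Eif4enif1 and 0.52 for Cpeb1. Zar1l ran opposite to Ybx2 (-0.51) and was not alike to its paralog Zar1 (-0.26), and Zar1 ran opposite to Ddx6 (-0.54). Without the 2 embryos that stood apart these values were 0.62, 0.58, 0.51, 0.50, -0.55, -0.37 and -0.38 in the same order. All values of a pair come from the same libraries and share their depth and composition, and the correlations are given as a description.

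**Figure D5:**
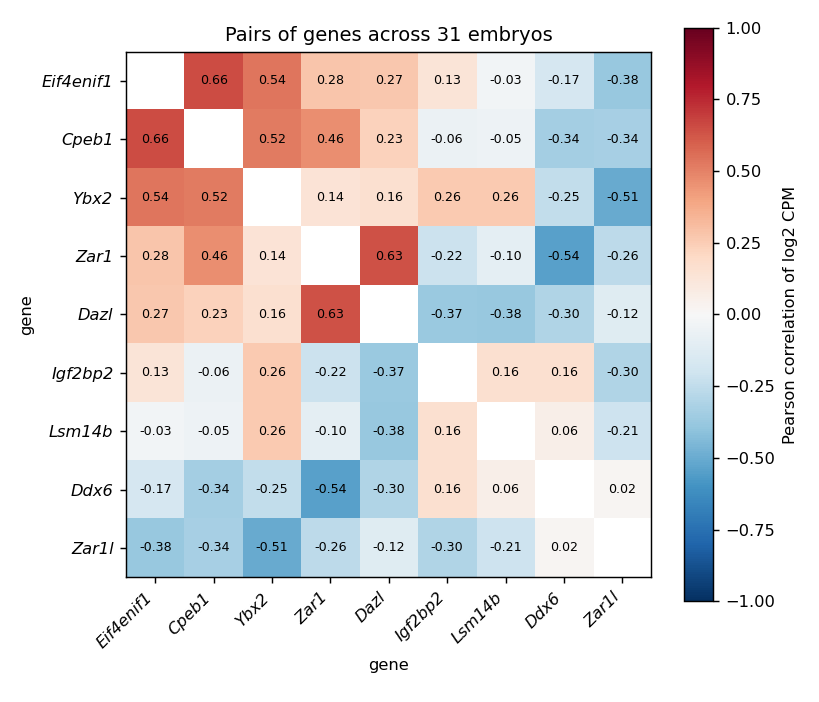
Pearson correlation of log2 CPM over 31 embryos for each pair of the 9 tested genes, from -1 (blue) to 1 (red). Cpeb1 with Eif4enif1 (0.66) and Zar1 with Dazl (0.63) are the highest pairs, and Zar1 with Ddx6 (-0.54) the lowest.

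Outside the list, the genes whose levels were most like the mean scaled level of the 9 members over the 31 embryos were Prelp (r = 0.796), Rapgef5 (0.789), Herpud2 (0.783), Pcbp3 (0.767) and Zfp280b (0.762). Without the 2 embryos that stood apart these values ran from 0.742 to 0.785. Pcbp3 encodes an RNA-binding protein of the poly(C) family.

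Other genes of mRNA storage, tail length and translational control were taken as a list of 52 genes, of which 45 were tested. In SER- against control-generated embryos 0 of the 45 had an adjusted p under 0.1 and 2 an unadjusted p under 0.05, against 0.0% and 5.73% of all genes. With the 2 embryos that stood apart left out, 1 had an unadjusted p under 0.05, against 667 of all 8572 genes in that fit. With all embryos the 2 were Cpsf4, a subunit of the cleavage and polyadenylation complex (log2 fold change 0.59, SE 0.29, edgeR adjusted p = 0.869), and Tent2, a cytoplasmic poly(A) polymerase (-0.62, SE 0.31, edgeR adjusted p = 0.869). The estimate was above 0 for 32 and below 0 for 13 of the 45, with a median of 0.11 against 0.02 over all genes tested, and without the 2 embryos that stood apart it was above 0 for 29, with a median of 0.10. The list's summed level had a control median of 7416 CPM (range 5109 to 9371) and an SER median of 8418 CPM (range 6692 to 10813), and the ranges overlapped.

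Paralogs of the members were in that list, and none passed edgeR's test between the groups. Their log2 fold changes were 0.31 for Ybx1 and -0.44 for Ybx3, 0.36 for Lsm14a, 0.17 for Patl1, -0.48 for Cpeb2, 0.00 for Cpeb3 and 0.11 for Cpeb4, and 0.17 for Igf2bp1 and -0.08 for Igf2bp3, with edgeR adjusted p from 0.901 to 1.00. Limma voom with quality weights called 4 of the 45, against 9.89% of all genes (4.56% higher in SER-generated embryos). These, named for their values, were higher Fmr1, Papola and Eif4e (1.16, 0.69 and 0.67) and lower Eif4e1b (-0.85). By edgeR the same 4 had 0.71, 0.29, 0.02 and -0.09.

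Along the zygotic index, 7 of the 45 genes rose and 12 fell at an edgeR adjusted p under 0.1, against 23.9% and 16.1% of all genes. Those that rose included Papola, the canonical poly(A) polymerase (0.62 per SD), Pabpc1, the main cytoplasmic poly(A)-binding protein (0.95), Fmr1 (0.77) and Eif4e, the cap-binding protein (0.35). Those that fell included Pabpn1l and Pabpc1l, the poly(A)-binding proteins of oocytes and early embryos (-0.86 and -0.72), and the decapping factors Dcp1a and Edc4 (-0.56 each). Without the 2 embryos that stood apart, 2 rose and 2 fell, against 8.9% and 3.07%.

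Transcripts known to be held and later translated under these regulators, among them Ccnb1, Wee2, Btg4 and Plat, made a second list of 15 tested genes. None of the 15 passed edgeR's test between the groups (0 at an adjusted p under 0.1, 0 at an unadjusted p under 0.05), against 0.0% and 5.73% of all genes. When the 2 embryos that stood apart were left out, 1 of the 15 had an unadjusted p under 0.05, against 667 of all 8572 genes in that fit. The smallest p-values belonged to Btg4, a trigger of maternal mRNA decay (log2 fold change -0.58, SE 0.34, edgeR adjusted p = 0.892), and Il7 (-0.38, SE 0.22, edgeR adjusted p = 0.892). Along the zygotic index 4 of the 15 fell, against 16.1% of all genes, namely Ccnb2 (-0.47 per SD), Dcp1a (-0.56), Btg4 (-0.42) and Dcp2 (-0.23). Of these, Dcp1a and Dcp2 are also in the storage list above and Btg4 is also among the oocyte genes below, so the lists are not separate. Without the 2 embryos that stood apart 1 rose and none fell (0 of 15).

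Oocyte genes with other functions (30 tested, Btg4 among them) had a median log2 fold change of -0.27, with 9 estimates above and 21 below 0. By edgeR 0 of the 30 had an adjusted p under 0.1 and 6 an unadjusted p under 0.05, against 5.73% of all genes, with the smallest p for Bcl2l10 (-1.10, SE 0.37, edgeR adjusted p = 0.501) and Omt2a (-0.71, SE 0.25, edgeR adjusted p = 0.607). Without the 2 embryos that stood apart the median was -0.29 and 9 had an unadjusted p under 0.05, against 667 of all 8572 genes in that fit. The members' median of 0.06 and the oocyte genes' median of -0.27 were not compared by a test. Along the zygotic index, 15 of the 30 oocyte genes fell and 1 rose, against 16.1% and 23.9% of all genes. Without the 2 embryos that stood apart, 1 fell and 4 rose, against 3.07% and 8.9%.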

How the data were processed

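Single 2-cell embryos, 16 control- and 15 SER-generated, were profiled by the Smart-seq3 protocol, with poly(A) priming and 19 cycles of preamplification. The authors used STAR for alignment and UMI-tools and Picard against duplicates, and deposited whole-number read counts per gene from featureCounts, without normalization. Per the labels the build was mm10. The annotation, strand setting and tool versions are not given in the sources used here. No member's exons overlap those of another gene. Their own comparison used ComBat-seq batch correction, then DESeq2 with a threshold of 0.1, and reported genes that differed between the groups. The batch of each embryo is not named in the labels, so that correction was not repeated.

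The group comparison was the quasi-likelihood test of edgeR 4.0.16 (in R 4.3.3) after TMM normalization, with no covariates, over the 8571 genes kept by filterByExpr (minimum count 10, minimum total 15), with Benjamini-Hochberg adjustment over all of them and a threshold of 0.1. The SE is the log2 fold change divided by the square root of F. For Patl2 the fit of all 17803 genes with a count was used. The zygotic index entered a second fit beside group. Deviations from the group median (log2 CPM, prior count 2) were tested by limma 3.58.1. Alternatives used DESeq2 1.42.0, limma voom and 5 surrogate variables (sva 3.50.0), other normalizations and filters, a depth covariate, thinned counts, a replicate block and leaving out embryos. The edgeR test between groups, the edgeR slope on the index and the limma test of spread were run on simulated data. DESeq2, limma voom and the fit with surrogate variables were not. Positions and lengths are from GENCODE vM21 (GRCm38, the same assembly as mm10), promoters from RefSeq GRCm38.p6.

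The members, lists and tests were chosen with earlier results of these data known. Named genes are the 10 members, paralogs in the storage list, up to 4 called genes a list and direction or else the 2 with the smallest p, and the 5 most similar genes. No 2 libraries were identical. Total counts of 532945 to 3088396 per library limit precision. Internal reads carry no molecular identifier, so floors from counts cover counting error only.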

Additional observations from a re-analysis of the deposited data

How the results depend on the processing

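Under edgeR with another normalization, a stricter filter, a depth covariate, thinned counts, a threshold of 0.05, the block or without control replicate 4 and SER replicate 15, 0 members were called between SER- and control-generated embryos. It was 1 member, Eif4enif1, under 5 surrogate variables, DESeq2, limma voom and no filter on low counts, where 7, 49, 848 and 504 of all genes were called, and limma voom called 4 other storage genes. Leaving out each embryo in turn called 0 to 0 members, storage genes and genes in all. Log2 fold changes that turned direction were those of Zar1 (0.37 with 5 surrogate variables), Ybx2 (-0.23 with limma voom, -0.16 with the library total as covariate), Cpeb1 (-0.050 with limma voom), Dazl (0.23 with the library total), Ddx6 (-0.039 with 5 surrogate variables) and Zar1l, whose value near 0 became 0.00069 with DESeq2, 0.0011 with RLE size factors, 0.095 with thinned counts, 0.46 with limma voom, 0.0076 with the library total, 0.011 without the filter and 0.0062 without the 2 embryos that stood apart. Leaving out single embryos moved Zar1l between -0.11 and 0.16 and Ybx2 between -0.12 and 0.27. The causes were not tested.

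The labels do not say whether same-numbered embryos of the 2 groups share a male, dish or batch. The correlation of their deviations ran from -0.368 to 0.494 over 15 pairs (median 0.113, over 0.1 in 8). Pairs with unlike numbers had a median of 0.0097. By this measure 2 of 15 SER- and 4 of 15 control-generated embryos were closest to their own number. These values do not decide whether the numbers mark pairs. With the replicate number as a block, which left out control replicate 16, 0 members were called, Eif4enif1 had 0.55 (edgeR adjusted p = 0.999) and Zar1l 0.093. The slope on the zygotic index was called for 3 members under the block, where that of Zar1 was -0.92 (adjusted p = 0.098), that of Lsm14b was -0.00049 and the difference in spread of Ddx6 was 0.0093.

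For the slope on the zygotic index, the main fit called 39.9% of all genes. With thinned counts 5 members were called, and 5 with an index without multicopy genes. Limma voom called 2 members, without Zar1 (-0.39, adjusted p = 0.314) and Ddx6 (0.22, adjusted p = 0.352), and edgeR without the filter 2, without Ddx6 (0.39, adjusted p = 0.105). These counts, and that under the block, stand without the share of all genes in the same fit. They are not a result about the members. Without the 2 farthest embryos 0 members and 1026 genes were called, with Igf2bp2 at -0.32, and limma voom gave Igf2bp2 -0.034. Leaving out single embryos gave 1 to 4 members and 1941 to 3769 genes, fewest without SER replicate 15, with Igf2bp2 between -0.13 and 0.086. For the spread, deviations from the group mean called 2 genes, single embryos left out gave 0 to 1 genes and 0 to 0 members, and Ddx6 had 0.014 with thinned counts. The difference in spread of Ddx6 ran from -0.17 to 0.045 and of Zar1l from -0.26 to 0.025. The order per kilobase kept 4 ranks with the longest and 4 with the coding transcript. Depth limits Patl2 most, with a median of 3 counts in control- and 7 in SER-generated embryos.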

Other observations

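The 3′ ends of the members were also read for motifs of other regulators, in the last 100 bases of the annotated 3′ UTR and on the sense strand. TTGTT, a motif bound by DAZL, was found in 2 of the 8 members searched, Ybx2 and Ddx6, against 23.3% of 19399 transcripts. TGTANATA, the motif of Pumilio proteins, was found in 0 of the 8, against 4.24%. A match is a description of the letters in the window and not a bound site.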
